A study of Mus musculus with 2 samples.

Results

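The genes described here are 10 receptors and enzymes of extracellular nucleotide signalling, chosen by gene symbol: the ATP-gated channel genes P2rx1, P2rx4 and P2rx7, the G protein-coupled P2Y receptor genes P2ry2, P2ry6, P2ry12, P2ry13 and P2ry14, and the ectonucleotidase genes Entpd1 and Nt5e. Of these 10 genes, 9 had a named probe set, of 19505 genes in all, and P2ry14 was not analysed here. Expression was read on whole-transcript GeneChips in primary mouse macrophages, differentiated out of marrow with the growth factor M-CSF (25 ng/mL, first on day 0 and again on day 3) and used from day 5. The groups were LysM (+);MC4RTB/TB and MC4RTB/TB, with 1 array each, both with 10% serum in culture. Both groups are homozygous for the TB allele of MC4R, the melanocortin 4 receptor, and the first also carries LysM. As background, LysM (Lyz2) is commonly used to drive Cre recombinase in myeloid cells, neutrophils included, and in a TB allele a removable cassette stops transcription until Cre cuts it out. The labels spell out neither, and they give no age, no sex and no number of pooled animals.

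Cells release ATP, UTP and their breakdown products when they are activated, stressed or dying, and neighbouring cells read these nucleotides through surface receptors. P2X receptors are ion channels opened by ATP, and P2Y receptors signal through G proteins to ATP, ADP, UTP, UDP or UDP-sugars. The ectonucleotidases end the signal: CD39, made from Entpd1, cuts ATP and ADP to AMP, and CD73, made from Nt5e, cuts AMP to adenosine. In macrophages this system is best known for the release of interleukin 1 after P2X7 opens and for the pull towards dying cells and the uptake of particles steered by P2Y receptors.

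None of the 9 measured genes differed between the arrays by 1.5-fold (0 higher and 0 lower). Levels are log2 RMA values (robust multi-array average, a standard summary of the probes of a gene), a difference is the LysM (+);MC4RTB/TB value minus the MC4RTB/TB value, and folds take the log base as 2, which the sources used here do not state. To be counted as higher or lower, a gene needed a 1.5-fold difference and a brighter value of 6.12 or more, which is the median over named probe sets and serves as the brightness floor below. Of the 9 genes, 6 reached that floor, all of them on both arrays and above the highest of 23 background control probe sets (6.81). The other 3, P2rx1, P2ry13 and Nt5e, lay under it on both arrays and within the range of those controls, from 3.09 up. By the same rule 10.9% of the 10137 genes reaching the floor were higher and 5.16% lower, 16.1% in all. At 2-fold 3.25% of genes were higher and 0.858% lower, and 0 members passed in either direction. At the lowest fold tried, where 25.5% of genes were higher and 15% lower, 2 members were lower, Entpd1 and P2rx7. With 1 array per group no difference has a replicate check and no test was run; the small number of arrays is what limits precision.

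**Figure D1:**
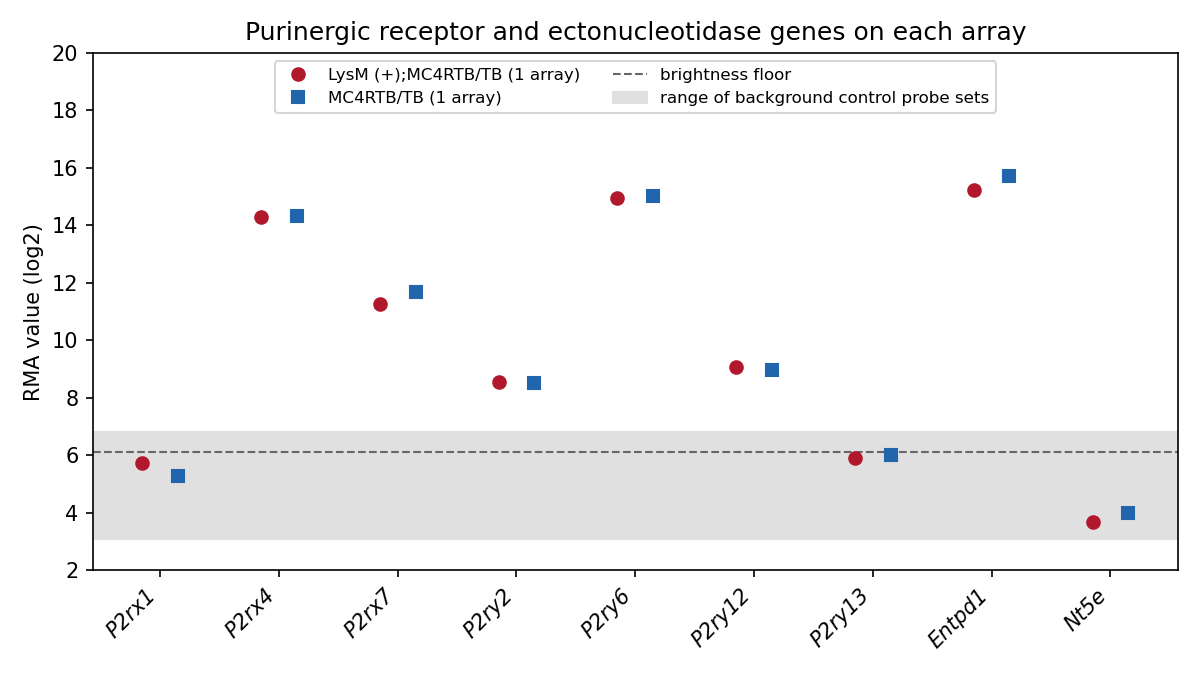
RMA value (log2, vertical axis) of each measured gene on the LysM (+);MC4RTB/TB array (circles) and the MC4RTB/TB array (squares), with the brightness floor of 6.12 (dashed line) and the span of the background controls, 3.09 to 6.81 (grey band). The pairs of points nearly coincide for P2rx4, P2ry2, P2ry6, P2ry12 and P2ry13, and P2rx1, P2ry13 and Nt5e lie inside the grey band.

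Entpd1 showed the largest difference among the genes above the floor. CD39, its product, is the surface enzyme that removes extracellular ATP and ADP. Entpd1 had 15.24 in LysM (+);MC4RTB/TB cells, against 15.72 in MC4RTB/TB cells, a difference of -0.47, or 1.39-fold, short of the 1.5-fold rule. It lies on chromosome 19 (GRCm38.p6, 40612366 to 40741602). A difference of that size or more, in either direction, was found in 23.8% of the genes above the floor. Bright genes varied less. The median absolute difference was 0.19 for the 720 genes whose brighter value was 14 or more, against 0.26 for genes above the floor. Of those 720 genes, 25 (3.47%) were lower by at least as much as Entpd1. That share counts falls only, so it is not comparable with the share in either direction. As lower by the 1.5-fold rule passed 2.08% of the 720, against 5.16% of genes above the floor. Nt5e, which makes the adenosine-producing enzyme CD73, had 3.70 in LysM (+);MC4RTB/TB cells, against 4.01 in MC4RTB/TB cells. Both Nt5e values are at background level, and the difference of -0.31 lies between them.

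Among the ATP-gated channels, none passed the 1.5-fold rule, and the differences were -0.41 for P2rx7 and -0.03 for P2rx4. P2X7 needs high ATP, lets potassium out of the cell and is the classical trigger of the NLRP3 inflammasome. P2rx7, on chromosome 5 (GRCm38.p6, 122643927 to 122692336), had 11.28 in LysM (+);MC4RTB/TB cells, against 11.69 in MC4RTB/TB cells, a difference of -0.41, or 1.33-fold. A difference of that size or more, in either direction, was found in 29.6% of genes above the floor. Among 2189 genes brightest between 10 and 12, 7.17% were lower by at least as much. That share counts falls only and is not comparable with the share in either direction. P2X4, a channel found largely on lysosomes and opened by lower ATP, is encoded 15.2 kb downstream of P2rx7. P2rx4 had 14.29 in LysM (+);MC4RTB/TB cells and 14.32 in MC4RTB/TB cells, a difference of -0.03. The differences of these adjacent genes were thus 0.38 apart on the log2 scale, which was not tested. P2X1 is best known from platelets and smooth muscle. P2rx1 had 5.73 in LysM (+);MC4RTB/TB cells, against 5.28 in MC4RTB/TB cells, a difference of 0.44 between values at background level.

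The 4 measured P2Y receptor genes all differed by 0.10 or less. P2Y6 answers UDP and is known to drive uptake of particles in microglia and chemokine output in myeloid cells. P2ry6 had 14.94 in LysM (+);MC4RTB/TB cells and 15.01 in MC4RTB/TB cells, a difference of -0.07. P2Y2 answers ATP and UTP and guides phagocytes to apoptotic cells. P2ry2, 21.1 kb from P2ry6 on chromosome 7, had 8.54 in LysM (+);MC4RTB/TB cells and 8.51 in MC4RTB/TB cells, a difference of 0.03 that turned to -0.03 after quantile normalization. P2Y12 and P2Y13 answer ADP through the inhibitory G protein Gi, which lowers cAMP, and P2Y12 is known from platelets and microglia. P2ry12 had 9.06 in LysM (+);MC4RTB/TB cells, against 8.96 in MC4RTB/TB cells, a difference of 0.10. P2ry13, 5.39 kb away on chromosome 3, had 5.92 in LysM (+);MC4RTB/TB cells and 6.0 in MC4RTB/TB cells, both just under the floor. Differences at least as large as that of P2ry2 were found in 93.1% of genes above the floor, and for P2ry6 and P2ry12 in 84.5% and 80.0%.

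Over the 9 genes the median difference was -0.07, with 3 above zero and 6 below, against a median of -0.01 over all 19505 genes. Over the 6 genes reaching the floor it was -0.05, with 2 above zero and 4 below, against 0.07 over the 10137 genes reaching it. In size, the median absolute difference was 0.08 for the 6 genes, against 0.26 for all genes reaching the floor, which is not matched for brightness. Among genes whose brighter value was 14 or more, as for P2rx4, P2ry6 and Entpd1, it was 0.19. All but Entpd1 and P2rx7 of the 6 had differences of 0.10 or less.

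**Figure D2:**
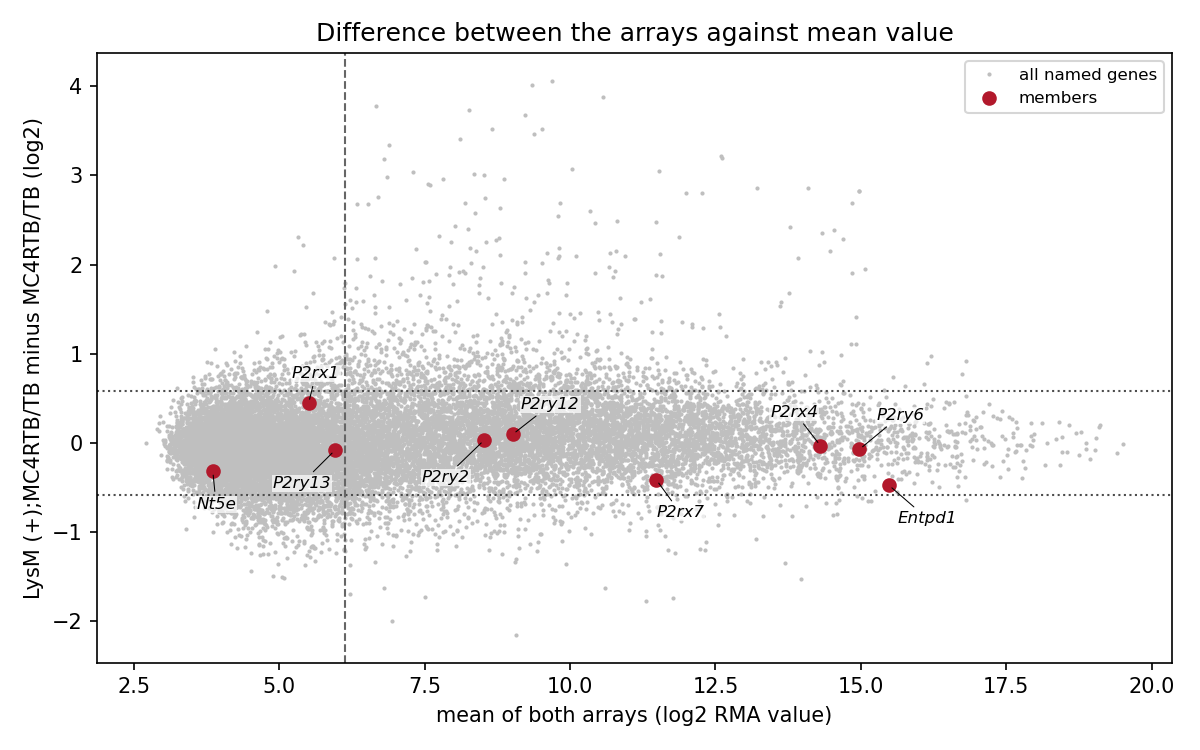
Difference between the arrays (LysM (+);MC4RTB/TB minus MC4RTB/TB, log2, vertical axis) against the mean of both arrays (log2 RMA value) for all 19505 named genes (grey) and the 9 members (red), with the 1.5-fold limits (dotted) and the brightness floor (dashed). All 9 members lie between the dotted lines, with Entpd1 at -0.47 and P2rx7 at -0.41 the lowest.

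Promoter windows of 300 bases, which span each annotated start and lie mostly upstream of it, were taken from RefSeq (GRCm38.p6), which gave 15 windows for 9 of the 10 genes; P2ry6 is named only. The 4 printed here belong to Entpd1 and P2rx7, which had the largest differences above the floor, to P2rx4, the neighbour of P2rx7 with nearly equal values, and to P2ry12, whose window held 2 of the motifs searched; they were chosen after the values were seen. Capitals mark motif matches on either strand.
Entpd1, chr19:40612116-40612415, plus strand: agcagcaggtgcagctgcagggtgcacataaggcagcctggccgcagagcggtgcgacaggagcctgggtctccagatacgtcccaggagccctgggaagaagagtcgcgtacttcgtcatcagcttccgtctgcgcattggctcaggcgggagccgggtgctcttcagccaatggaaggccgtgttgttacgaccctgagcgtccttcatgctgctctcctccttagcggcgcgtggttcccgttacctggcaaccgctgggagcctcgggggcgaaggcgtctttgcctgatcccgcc
P2rx7, chr5:122643677-122643976, plus strand: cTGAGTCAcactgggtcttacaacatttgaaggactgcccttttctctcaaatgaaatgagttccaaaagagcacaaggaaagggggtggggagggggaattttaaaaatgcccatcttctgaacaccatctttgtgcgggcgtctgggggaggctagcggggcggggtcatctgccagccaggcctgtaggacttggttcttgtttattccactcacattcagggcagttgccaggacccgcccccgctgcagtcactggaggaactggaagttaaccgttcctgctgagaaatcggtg
P2rx4, chr5:122707294-122707593, plus strand: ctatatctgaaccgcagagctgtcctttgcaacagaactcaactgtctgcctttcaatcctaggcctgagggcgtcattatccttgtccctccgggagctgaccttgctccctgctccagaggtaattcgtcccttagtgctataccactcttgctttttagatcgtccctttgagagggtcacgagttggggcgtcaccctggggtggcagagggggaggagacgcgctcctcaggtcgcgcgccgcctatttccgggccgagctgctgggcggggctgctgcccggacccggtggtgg
P2ry12, chr3:59262936-59263235, minus strand: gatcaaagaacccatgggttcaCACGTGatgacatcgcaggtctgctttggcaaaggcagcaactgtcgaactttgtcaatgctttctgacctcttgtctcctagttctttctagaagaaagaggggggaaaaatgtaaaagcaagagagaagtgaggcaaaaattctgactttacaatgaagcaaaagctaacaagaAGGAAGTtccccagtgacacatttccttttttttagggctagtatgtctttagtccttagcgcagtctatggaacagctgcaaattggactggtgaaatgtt

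The motifs were AGGAAGT, bound by ETS factors such as PU.1, TGACGTC, the core of the cAMP response element, TGANTCA of AP-1 and the E-box CACGTG, each searched on both strands. The ETS motif was in 2 of the 15 windows, those of P2rx7 (a second start, not printed) and P2ry12, and in 9.35% of all 32851 windows. The AP-1 motif was in 3 of the 15, windows of P2rx7 and P2ry14 (7.81% of all windows). The E-box was also in 3, windows of P2ry12 and P2ry2 (7.15%), and the windows of P2ry2 overlap and share the same site. The core of the cAMP response element was in 0 of the 15 windows, against 3.21% of all windows. Entpd1 and P2rx4 held none of the 4 motifs in their windows. These are matches of letters only, and 15 windows are too few to set their counts against the shares of all windows.

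The rest of the purinergic system was likewise close to the background of the arrays. Of 75 further genes listed by role, 66 were measured and 46 reached the floor, of which 5 (10.9%) were higher and 2 (4.35%) lower, against 10.9% and 5.16% of all genes. Their median difference was -0.07 over the 66 and -0.05 over the 46. The 4 adenosine receptor genes were among those not analysed here. Each list below held at most 2 counted genes, and these counts describe these arrays only. Only genes reaching the floor could be counted: 4 of 7 other P2Y and related receptors, 5 of 10 ectoenzymes and 8 of 10 adenosine genes. It was reached by 9 of 13 genes that release ATP, 10 of 12 G protein and phospholipase C genes and 9 of 10 inflammasome genes.

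Among the other P2X channels 1 of 4 was counted: P2rx6, with 7.59 in LysM (+);MC4RTB/TB cells, against 8.21 in MC4RTB/TB cells, 1.53-fold lower. The other 3 were under the floor, and all 4 differences were below zero (median -0.29). Among the other P2Y receptors and related receptors 0 of 7 were counted, and the largest difference above the floor was that of Gpr34, a lysophosphatidylserine receptor of myeloid cells, at -0.37. P2ry1, the ADP receptor coupled to Gq, had 6.40 in LysM (+);MC4RTB/TB cells and 6.29 in MC4RTB/TB cells, within the background control range. It was named after its value was seen.

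Of 10 other nucleotide-cutting ectoenzymes and relatives 0 were counted, with a median difference of 0.08, and the largest difference above the floor was -0.38, for Entpd6, a relative of Entpd1 found mainly in the Golgi. Among 10 genes of adenosine uptake and breakdown, 1 was counted as lower: Slc28a3, a concentrative nucleoside transporter, with 5.73 in LysM (+);MC4RTB/TB cells, against 6.39 in MC4RTB/TB cells. It was within the background control range on both arrays. The median of that list was -0.03.

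Genes that release ATP had the highest median of these lists, 0.20 over 13 genes, with 2 counted as higher and 0 as lower. Lrrc8c, a subunit of the volume-regulated anion channel, had 10.05 in LysM (+);MC4RTB/TB cells, against 9.24 in MC4RTB/TB cells, 1.76-fold higher. Slc17a9, the vesicular nucleotide transporter that loads ATP into secretory vesicles, had 6.96 in LysM (+);MC4RTB/TB cells, against 6.36 in MC4RTB/TB cells, 1.52-fold higher, the MC4RTB/TB value being within the background control range. Panx1, the channel that lets ATP out of dying cells, was below the rule at a difference of 0.46 and was named after its value was seen.

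Of 12 G protein and phospholipase C genes that relay P2Y signals, 2 were counted as higher and 0 as lower, with a median of 0.00. Gnaq, the alpha subunit that links Gq-coupled P2Y receptors to phospholipase C, had 12.90 in LysM (+);MC4RTB/TB cells, against 12.09 in MC4RTB/TB cells, 1.75-fold higher. Plcb4, a phospholipase C that Gq activates, had 7.44 in LysM (+);MC4RTB/TB cells, against 6.28 in MC4RTB/TB cells, 2.23-fold higher, with the MC4RTB/TB value within the background control range.

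The list of inflammasome and interleukin 1 release genes held 1 gene that passed the rule. Of 10 genes, 9 had differences below zero, between -0.53 and -0.06, none of which passed the 1.5-fold rule (0 lower), and the median was -0.28. Pycard, which encodes the adaptor ASC, was counted as higher: it had 10.91 in LysM (+);MC4RTB/TB cells, against 10.22 in MC4RTB/TB cells, 1.61-fold higher. The sensor gene Nlrp3 and the cytokine gene Il1b, named after their values were seen, had differences of -0.46 and -0.53. Over all genes the median was -0.01, and no test of the list was run.

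**Figure D3:**
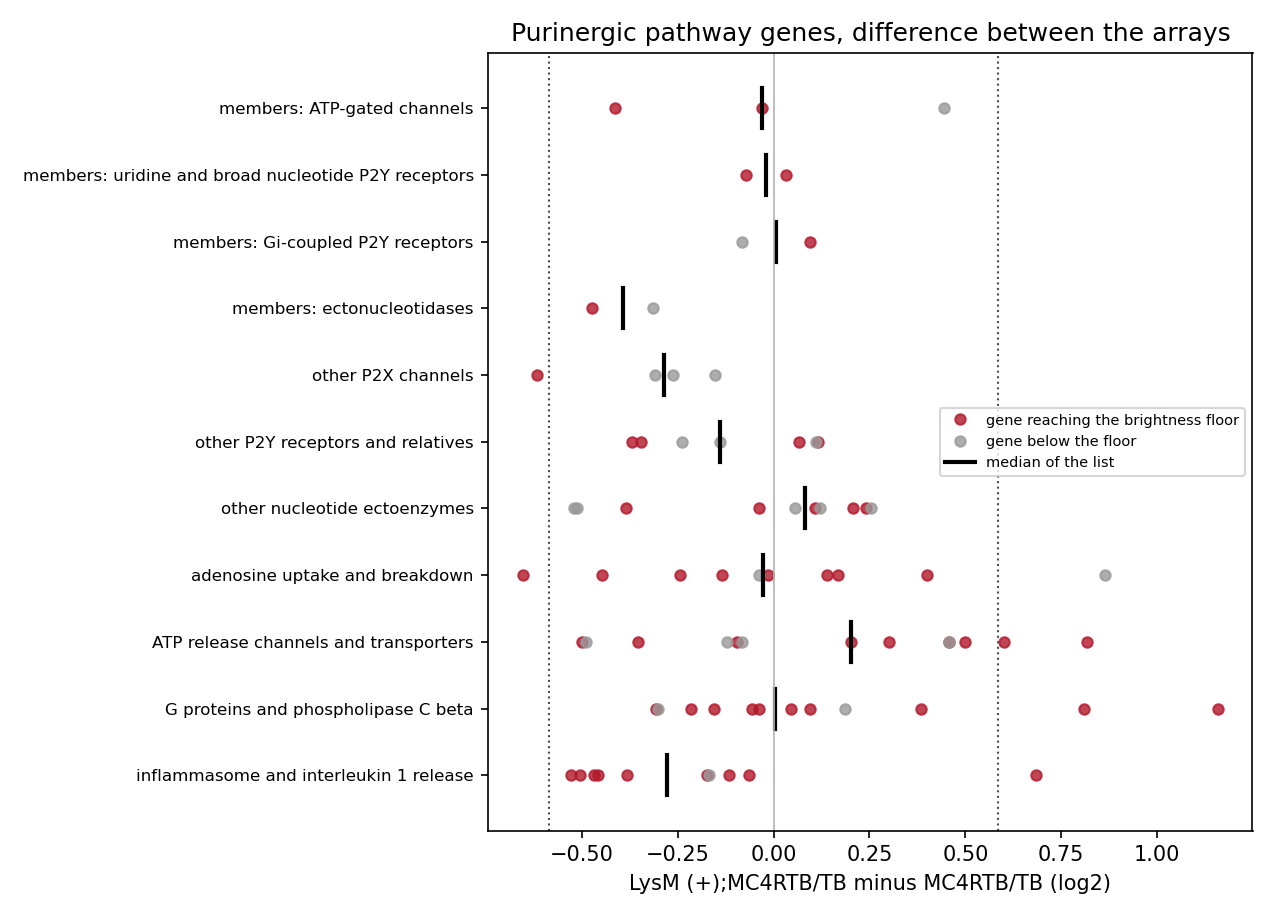
Difference between the arrays (LysM (+);MC4RTB/TB minus MC4RTB/TB, log2, horizontal axis) for each gene of the purinergic lists, red where the gene reaches the brightness floor and grey where it does not, with the median of each list (black bar) and the 1.5-fold limits (dotted). The inflammasome genes lie below zero but for Pycard, and the largest value is that of Plcb4, 2.23-fold higher in LysM (+);MC4RTB/TB cells.

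The cells carried macrophage markers on both arrays: Adgre1 had 17.01 in LysM (+);MC4RTB/TB cells and 17.24 in MC4RTB/TB cells, Csf1r had 17.69 in LysM (+);MC4RTB/TB cells and 17.89 in MC4RTB/TB cells, and 8 of 8 measured macrophage markers reached the floor, with a median difference of -0.19. Mc4r, at 4.45 in LysM (+);MC4RTB/TB cells and 4.57 in MC4RTB/TB cells, was within the background control range, so it gives no check of the genotype labels. Lyz2 was bright on both arrays, with 18.86 in LysM (+);MC4RTB/TB cells and 19.04 in MC4RTB/TB cells. Its difference was -0.18, and whether it bears on the genotype was not tested. Genes of cell division were higher in LysM (+);MC4RTB/TB cells, 11 of 11, with a median difference of 3.34, and the list opens with Mki67 and Top2a. Mki67 had 13.66 in LysM (+);MC4RTB/TB cells, against 10.86 in MC4RTB/TB cells, and Top2a had 8.64 in LysM (+);MC4RTB/TB cells, against 6.75 in MC4RTB/TB cells. The MC4RTB/TB values of Top2a, Ccna2, Cdk1 and Bub1 were within the background control range. Of 9 neutrophil markers (median 0.51), 8 reached the floor and 4 were higher, where 10.9% of all genes reaching the floor were. The 4 were Ltf (1.38), Retnlg (1.32), Elane (1.18) and Cxcr2 (0.71), named after their values were seen. All of these but Ltf were within the background control range on the MC4RTB/TB array. S100a8 and S100a9, not counted, had differences of 0.29 and 0.51. Of 7 monocyte markers (median 0.36), 1 was higher, Cx3cr1, at a difference of 1.90, also named after its value was seen.

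Platelets carry P2rx1 and P2ry12, so their markers are given beside these genes. Of 9 megakaryocyte and platelet markers, 5 reached the floor, and the median was 0.30, with 7 differences above zero and 2 below. Counted as higher were 2, where 10.9% of all genes reaching the floor were higher and 5.16% lower. These were Pf4 and Ppbp, with differences of 1.23 and 2.16, named after their values were seen. The 2 below zero were the platelet integrin gene Itga2b and the receptor gene Gp9, at -0.21 and -0.07. Of 7 markers linked to microglia, which also carry P2ry12, 1 was higher (Olfml3, named after its value was seen) and the median was -0.18. The other 7 lists of cell types had medians between -0.15 and 0.25. Among them the eosinophil list held 1 gene counted as higher, Ccr3 (1.19). The fibroblast, endothelial cell and mast cell lists each held 1 gene counted as lower, and the remaining lists 0. The lower genes were Col1a2 (-0.61), Vwf (-0.91) and Hdc (-0.59), named like Ccr3 after their values were seen. Few genes reached the floor in some of these lists: 0 of 5 for B cells, 1 of 7 for T and NK cells and 1 of 7 for mast cells and basophils. In RNA from whole cultures, fewer cells of a type and less RNA per cell cannot be told apart. What part cell division or these cell types have in the differences of Entpd1 and P2rx7 was not tested.

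**Figure D4:**
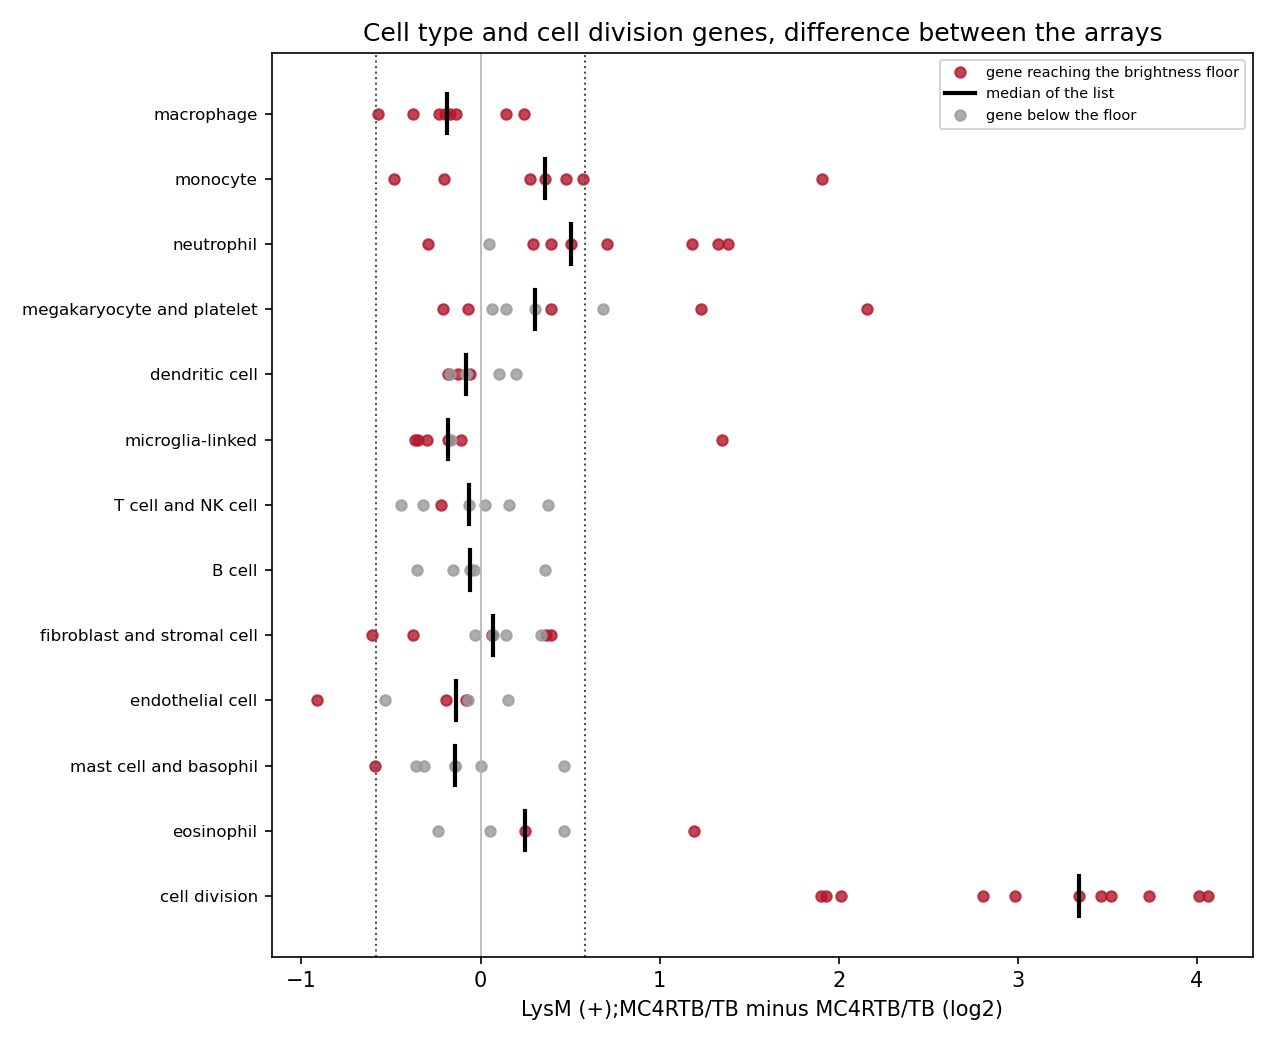
Difference between the arrays (LysM (+);MC4RTB/TB minus MC4RTB/TB, log2, horizontal axis) for marker genes of each cell type and for cell division genes, red where the gene reaches the brightness floor and grey where it does not, with list medians (black bars) and the 1.5-fold limits (dotted). All 11 cell division genes lie to the right of the limit, and the macrophage markers lie within both limits.

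Genes beside the members were also read. Protein-coding genes with provisional symbols (Gm numbers, Rik or LOC) were passed over. Of 37 remaining protein-coding genes among the 3 nearest on each side of the members, 32 were measured and 23 reached the floor, with a median difference of 0.00. Among these neighbours 1 gene was counted as higher and 1 as lower, where 10.9% and 5.16% of all genes reaching the floor were. The higher one was Aldh18a1, a proline synthesis enzyme gene near Entpd1. Aldh18a1 had 7.26 in LysM (+);MC4RTB/TB cells, against 6.24 in MC4RTB/TB cells, the MC4RTB/TB value being within the background control range. The lower one was Relt, a TNF receptor family gene near P2ry2 and P2ry6, with 5.94 in LysM (+);MC4RTB/TB cells, against 6.56 in MC4RTB/TB cells. Relt was within the background control range on both arrays.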

How the data were processed

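Probe set values, taken here as log2, were deposited by the authors, who used RMA and Affymetrix Expression Console according to the submitters' processing notes. The sources used here state neither the log base nor a software version. RMA subtracts background, matches the arrays to each other and combines the probes of a set, so a difference shared by most genes would be removed. Per the labels' protocols, Trizol was used for the RNA and a whole-transcript kit for the biotin label. Values ran from 2.57 to 19.5, higher than is usual for RMA, so every fold depends on reading them as log2. The table held 28846 probe sets; 19572 carried a single symbol in the array's annotation and were matched by Entrez ID to RefSeq genes of GRCm38.p6. They covered 19505 genes, of which 55 had several probe sets, which were averaged; each of the 9 members had 1.

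With 1 array per genotype no test was run. Genes were counted by the 1.5-fold rule with the brightness floor of 6.12. All members were named, with the counted genes of each purinergic list, or otherwise its gene above the floor that differed most. The first 2 markers are named for the macrophage, neutrophil, platelet and cell division lists only, to keep to the members. The members and lists were chosen with earlier results of these data known. Alternatives were centring, quantile normalization, loess (span 0.4), other floors, other folds and the brightest probe set. Python 3.11.15, pandas 2.3.3 and statsmodels 0.14.6 were used.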

Additional observations from a re-analysis of the deposited data

How the results depend on the processing

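No member was counted at 1.5-fold under any of the normalizations, floors or probe set rules tried (0 higher, 0 lower), and their median difference stayed between -0.10 and -0.07. At the lowest fold tried 2 members, Entpd1 and P2rx7, were lower, where 15% of all genes were. Across the alternatives Entpd1 ranged from -0.52 to -0.47, P2rx7 from -0.48 to -0.41 and P2ry2 from -0.03 to 0.04. Of the other purinergic genes, 5 were higher and 2 lower; 1 was lower with loess, with the floor at the highest background control or with both arrays held to the floor, since Slc28a3 then dropped out; at 2-fold 1 was higher and 0 lower, and at the lowest fold 9 were higher and 13 lower. Of the neighbouring genes, 1 was higher and 1 lower; 0 were lower after quantile normalization, loess, with the stricter floors or at 2-fold, and 5 were higher and 4 lower at the lowest fold. Over all genes, 1106 were higher and 523 lower at 1.5-fold, 329 and 87 at 2-fold, and 2581 and 1523 at the lowest fold. Without a floor 1361 were higher and 1075 lower, so higher genes made up 55.9% of the calls against 67.9% with the floor. No detection calls or scanner signals were used here, so signal over background is known only from the control probe sets. No paired analysis was possible because each group had 1 array.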
